A study of Capra hircus with 9 samples.

Results

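The 51 genes described here encode the machinery that moves a newly made secretory protein into the endoplasmic reticulum (ER), folds and glycosylates it there, and loads it into the COPII-coated vesicles that leave for the Golgi. They were chosen by gene symbol and are 51 of the 23499 genes in the table of goat mammary gland. Expression was measured by RNA sequencing of whole mammary tissue from 9 healthy goats of the Laoshan dairy breed, of the 3rd parity and an average age of 4 years, with tissue taken at slaughter. The groups were late lactation (LL, 240 days postpartum, n = 3), the dry period (DP, 300 days postpartum, n = 3) and late gestation (LG, 140 days after mating, n = 3), with 1 library per goat, named by stage and replicate (DP3 is replicate 3 of DP). P-values therefore rest on the spread between goats of the same stage, with 3 goats per stage. For fold changes that spread was pooled over the stages and drawn partly from other genes. In whole tissue fewer cells of a type and less RNA per cell cannot be told apart.

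A secretory protein is recognised by its signal peptide as it leaves the ribosome. The signal recognition particle (SRP) brings the ribosome to its receptor, the Sec61 channel takes the chain in, signal peptidase removes the signal peptide and oligosaccharyltransferase attaches N-glycans, after which lectin chaperones and protein disulfide isomerases fold the chain and the COPII coat exports it. In the mammary gland the same route carries the caseins and whey proteins of milk.

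The values are FPKM, read counts corrected for gene length and library size, and a few genes take most of the sum of an LL library. The 51 genes made up 0.135% to 0.152% of the summed FPKM in LL. The share was 0.781% to 0.966% once the 10 genes with the highest mean over the 9 libraries were left out. Beta-casein (CSN2) alone lay between 83442 and 101530 FPKM in LL, between 17.6 and 47.8 FPKM in DP and between 3851 and 6044 FPKM in LG, so LL was highest and DP lowest for this milk protein. Both of the following scales are therefore used. Deposited FPKM are the values as they stand, and scaled FPKM are those values divided by a factor for each library (0.498 to 0.605 in LL, 1.20 to 1.31 in LG and 1.44 to 1.53 in DP) that brings the median gene to the same level in every library. A gene was called when its adjusted p was under 0.05 and its log2 fold change on the scaled values (with 1 FPKM added) was at least 1 in size, in limma with Benjamini-Hochberg adjustment over the 14701 genes tested. All 51 genes passed the filter on low values.

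The choice of scale decides the direction of the group as a whole between LL and the other stages. On deposited FPKM the 51 genes summed to 1425 to 1670 in LL, 2235 to 2769 in LG and 1666 to 2120 in DP, so that LL was the stage with the lowest mean for 44 genes. On scaled FPKM they summed to 2354 to 3143 in LL, 1812 to 2107 in LG and 1123 to 1473 in DP, and LL was the stage with the highest mean for 35 genes and DP the stage with the lowest mean for 42. A rank inside a library depends on neither scale. The median gene of the 51 stood at percentile 88.8 to 92.0 of the tested genes in LL libraries, at 83.6 to 85.9 in DP and at 86.8 to 89.7 in LG, so that LL and LG overlapped and both lay above DP. All falls and rises below are on scaled FPKM, that is relative to the median gene, unless deposited FPKM are named.

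Ranks differed between roles. The median disulfide isomerase or lectin chaperone stayed at percentile 96.5 to 97.6 in all 9 libraries. The Sec61 group stood at 94.6 to 95.7 in LL, 91.0 to 92.0 in LG and 86.3 to 88.8 in DP, with no overlap between any of the stages. Signal peptidase stood at 90.9 to 93.4 in LL against 82.9 to 84.5 in DP and 83.3 to 88.2 in LG. The COPII coat had the lowest mean rank of any role in each stage, and its stages overlapped (75.2 to 77.5 in LL, 76.9 to 82.9 in LG and 68.5 to 81.5 in DP).

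**Figure D1:**
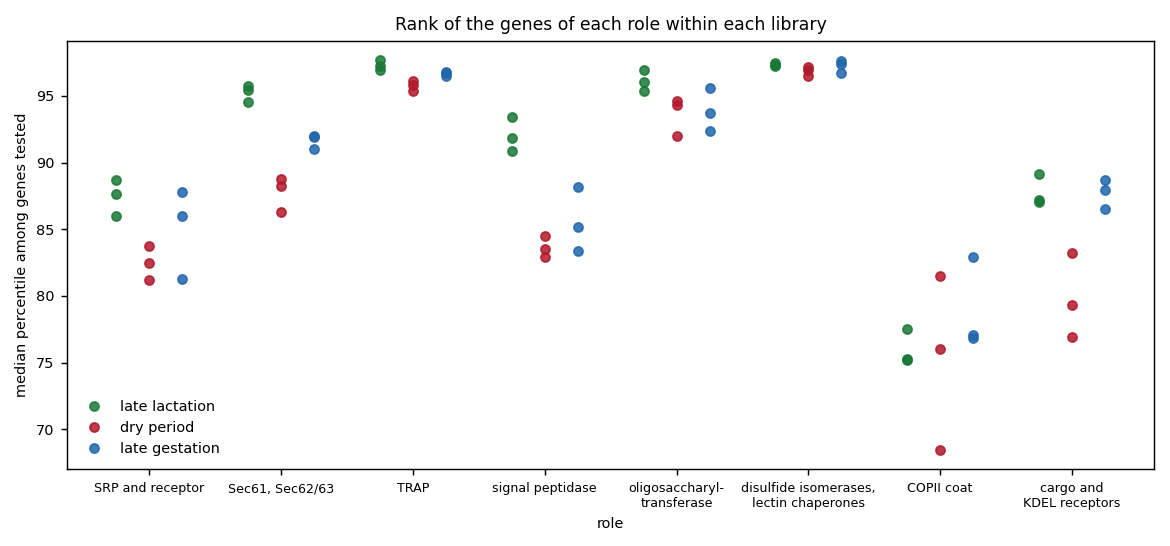
Median percentile, among the 14701 genes tested, of the genes of each role in each library (1 point per library, 3 libraries per stage). The Sec61 group forms 3 separate clusters of points in the order LL (94.6 to 95.7), LG (91.0 to 92.0) and DP (86.3 to 88.8), whereas the stages overlap for the COPII coat.

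In DP against LL, 14 of the 19 genes that fell past both thresholds belong to the channel, the TRAP complex, signal peptidase or oligosaccharyltransferase. These roles were put together after the values were seen. Of the 51 genes, 19 were called lower (37.3%, against 8.79% of all genes tested) and 0 were called higher (13.8% of all genes tested). The 0 refers to limma with both thresholds, since by adjusted p alone 2 genes (SEC24C and SEC23A) were higher, where 28.2% of all genes tested were, and 33 were lower, where 28.6% were, and at an unadjusted p under 0.05 3 were higher. The median log2 fold change of the 51 was -0.76 (upper quartile -0.37), beside 0.00 for all genes tested. Highly expressed genes of any kind were called lower more often. Among the 1562 tested genes at or above the mean level of the median member (21.4 scaled FPKM) 29.1% were called lower, and among the 26 members at or above that level 16 were (61.5%). The scaled values of the stages did not overlap for 35 genes lower in DP and 3 higher, where 33.4% and 32.5% of all genes tested were so. On deposited FPKM, 3 genes lay below LL in every DP library (SEC11C, SEC62 and SSR4, where 3.88% of all genes did so) and 32 lay above it (84.0% of all genes).

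By role, 4 of 6 genes of the Sec61 group, 3 of 4 of the translocon-associated protein (TRAP) complex, 3 of 5 of signal peptidase and 4 of 6 of oligosaccharyltransferase were called lower in DP. Together these are 14 of 21 genes and their log2 fold changes had a median of -1.19. The other roles gave 5 of 30 genes with a median of -0.53, namely 2 of 8 of SRP and its receptor, 1 of 7 disulfide isomerases and lectin chaperones, 1 of 10 of the COPII coat and 1 of 5 cargo and KDEL receptors. The 2 sets were formed after the values were seen, and the difference between them was not tested. They were not matched for level. Members called lower in DP had a median level of 50.7 scaled FPKM, and those not called had 14.5. The counts depended on the scaling between libraries: under quantile normalization 5 of 21 genes of the first set were called lower (SEC61A1, SEC62, SSR4, SEC11C and RPN2, median -0.61) and 1 of 30 genes of the other roles (SRP54, median -0.26). Of the 14701 genes tested, 1072 were called lower under quantile normalization, beside 1292 with the scaling used above. The calls of DAD1, DDOST, RPN1, SSR2, SSR3, SEC61B, SEC61G, SPCS2, SPCS3, LMAN1, P4HB, SEC23B and SRPRA were lost under that scaling, as were those of P4HB, RPN2, SEC62 and SRP54 in LG against LL.

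In LG against LL fewer genes were called, and SEC24C of the COPII coat was the one called higher. 5 genes were called lower (SRP54, SEC62, P4HB, RPN2 and SEC11C, where 6.61% of all genes tested were called lower) and 1 was called higher (SEC24C, where 10.7% were). A share of 9.80% called lower is near that background. Among tested genes at or above the level of the median member 17.9% were called lower. Among the 26 members at or above that level 5 were (19.2%). The median log2 fold change was -0.29, with 38 genes lower and 13 higher, beside 0.02 for all genes. Scaled values did not overlap for 21 genes lower in LG and 4 higher, where 30.2% and 31.0% of all genes tested were so. On deposited FPKM 39 genes lay above LL in every LG library (76.1% of all genes tested) and 1, SEC11C, lay below it (3.87%).

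In LG against DP 46 of 51 genes had a log2 fold change above 0, and the median was 0.46 on the log2 scale, beside 0.01 for all genes. 2 were called higher, SSR4 and SEC11C (6.37% of all genes tested were called higher), and 18 were higher by adjusted p alone (18.4% of all genes tested were). None was called lower in limma (0 of 51, with 0 at an adjusted or unadjusted p under 0.05), where 6.88% of all genes were. Tested genes at or above the level of the median member had a median of 0.46, with 23.8% called higher and 8.45% called lower. The 26 members at or above that level had a median of 0.57, with 2 called higher (7.69%) and 0 called lower. Scaled values did not overlap for 25 genes higher in LG and 0 lower, where 25.1% and 22.8% of all genes tested were so. The comparisons share the LL, DP or LG libraries and are not independent of each other.

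**Figure D2:**
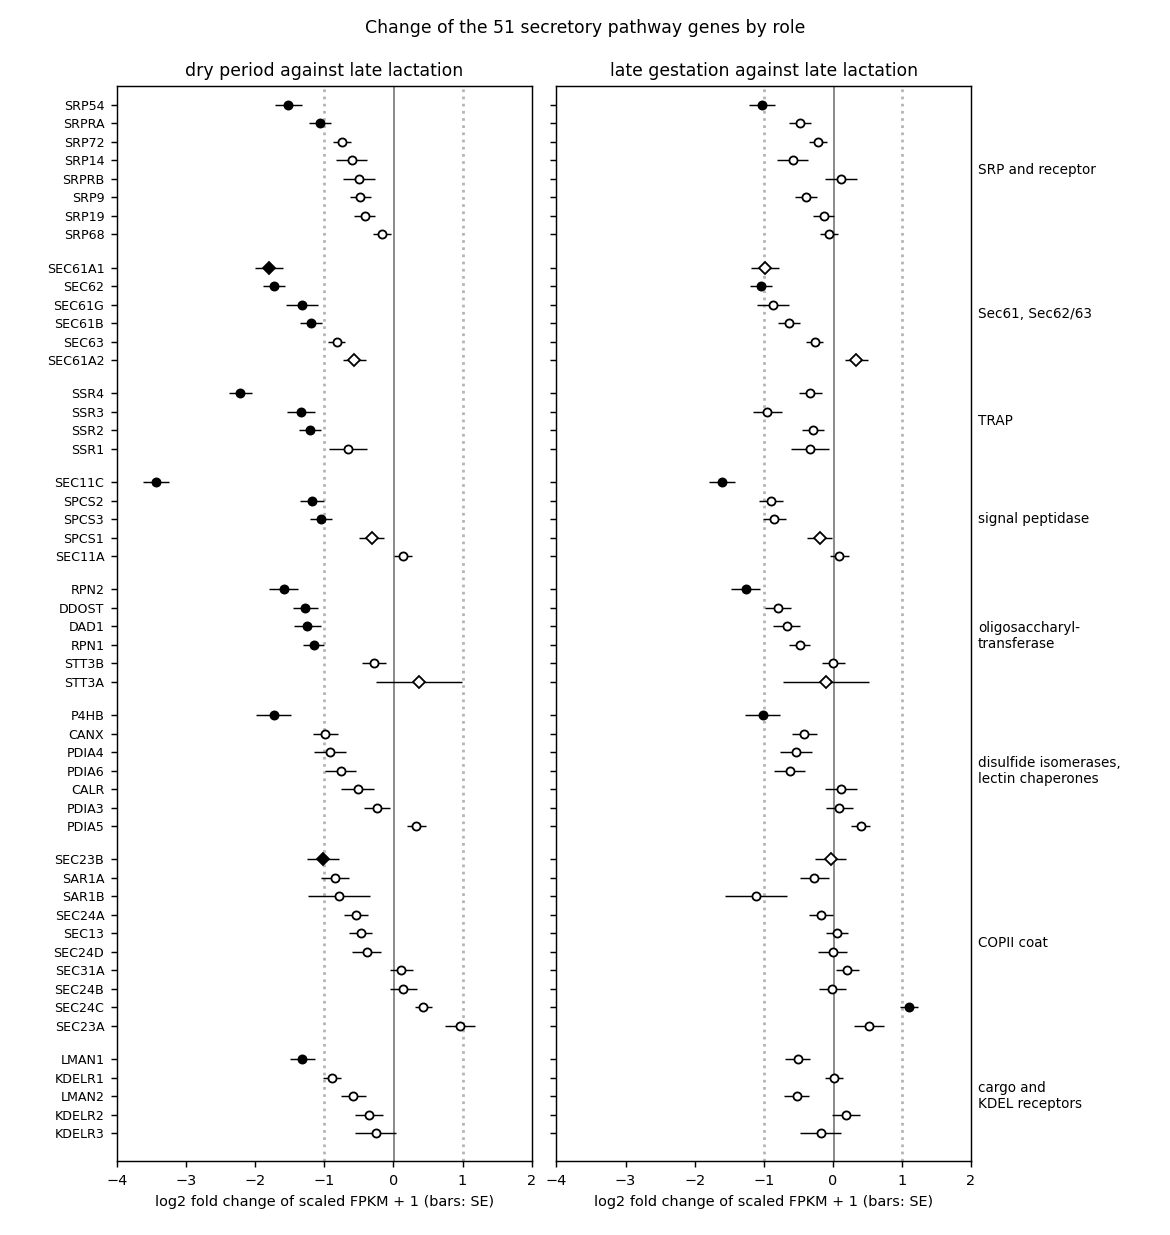
Log2 fold change of scaled FPKM (1 added) with its SE for each of the 51 genes, grouped by role, in DP against LL (left) and LG against LL (right). With the median of all genes as the grey line, the threshold of 1 as dotted lines, called genes filled and the 5 genes that follow a neighbour as diamonds, SEC11C lies farthest to the left in both panels (-3.44 and -1.61) and SEC24C is the called gene on the right (1.10), whereas on deposited FPKM most genes lie above LL.

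5 of the genes cannot be read as separate measurements. The values of SEC61A1, SEC61A2, SEC23B, SPCS1 and STT3A followed those of a neighbouring gene (LOC108638599, DHTKD1, LOC106502755, GNL3 and CHEK1) exactly, with the same small set of differences over the 9 libraries that links 1506 genes of the table. SEC61A1 and SEC61A2 overlap their neighbours on the same strand. Without these 5, 17 of 46 genes were called lower in DP against LL with a median of -0.77 on the log2 scale. With all linked genes left out, 1111 of the 13199 genes tested were called lower there. The medians of the 46 genes were 0.42 in LG against DP and, in the other comparison with LL, -0.33. Each is named as linked below.

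SRP and its receptor bring the ribosome to the membrane. SRP54, the GTPase subunit that binds the signal peptide, was at 19.0, 22.6 and 20.5 FPKM in LL, at 18.1, 17.2 and 19.5 in DP and at 22.0, 16.4 and 30.9 in LG. Deposited values of the stages overlapped, while on scaled values it fell in both comparisons with LL, with log2 fold changes of -1.52 (SE 0.19, adjusted p = 0.000169) in DP and -1.03 (adjusted p = 0.00214) in LG. SRPRA, the receptor subunit that pairs with SRP54, fell in DP by 1.06 on the log2 scale (adjusted p = 0.000486). SRPRA shares 55 bases with a gene on the other strand, and the kit does not mark strand.

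Other subunits of the particle changed less. SRP72, which with SRP68 forms its large protein heterodimer, fell in DP by 0.74 on the log2 scale (adjusted p = 0.00131) without reaching the threshold of 1, and SRP68 had a log2 fold change of -0.16 (adjusted p = 0.305). SRP9, SRP14 and SRP19 had values of -0.48, -0.60 and -0.42 with adjusted p of 0.0257, 0.0428 and 0.0383. SRPRB, the membrane-anchored receptor subunit, stood at 47.5 FPKM in LG3 against 27.7 and 21.7 in the other LG libraries, the largest LG library being over 2 times the smallest.

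The Sec61 channel is a trimer of an alpha, a beta and a gamma subunit, assisted by SEC62 and SEC63. SEC62 was at 23.9, 29.6 and 22.3 FPKM in LL, at 19.4, 18.4 and 19.6 in DP and at 26.8, 24.9 and 29.2 in LG. All DP libraries were below all LL libraries before and after scaling, and the log2 fold change in DP was -1.73 (SE 0.16, adjusted p = 2.31e-05). Its partner SEC63 fell less, by 0.82 on the log2 scale (adjusted p = 0.000513). SEC62 was also called lower in LG (log2 fold change -1.04, adjusted p = 0.00059), and in LG against DP it rose by 0.69 (adjusted p = 0.00809).

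Both small subunits fell in DP. SEC61B was at 39.8, 41.9 and 40.5 FPKM in LL, at 41.6, 46.5 and 53.0 in DP and at 60.3, 53.7 and 64.0 in LG. SEC61G was at 30.6, 39.7 and 30.6 in LL, at 26.9, 33.5 and 46.5 in DP and at 38.4, 34.9 and 51.6 in LG. Deposited values overlapped between LL and DP for both, and scaled values did not. In DP their log2 fold changes were -1.19 (adjusted p = 0.000215) and -1.32 (adjusted p = 0.00126). SEC61A1, a linked gene that encodes the main alpha subunit, gave -1.80 (SE 0.20, adjusted p = 8.56e-05), and SEC61A2, its linked paralog, gave -0.57 (adjusted p = 0.0153).

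The TRAP complex sits beside the channel and helps in the entry of some chains. SSR4, its delta subunit, had the highest mean of the 51 genes in LL and in LG. It was at 207, 264 and 219 FPKM in LL, at 131, 121 and 139 in DP and at 437, 420 and 382 in LG. The stages did not overlap on deposited FPKM, with LG highest and DP lowest, whereas LL and LG overlapped after scaling. SSR4 fell in DP (log2 fold change -2.21, SE 0.17, adjusted p = 9.25e-06), rose from DP to LG (1.89, SE 0.17, adjusted p = 8.51e-05), and was at -0.33 (adjusted p = 0.13) in LG against LL. It lies on an unplaced scaffold, at positions 16204 to 20084.

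SSR2, the beta subunit, showed the same order of stage means on scaled values with a smaller range. It was at 56.3, 60.5 and 49.8 FPKM in LL, at 66.3, 60.0 and 64.0 in DP and at 104, 96.6 and 108 in LG. SSR2 fell in DP by 1.20 on the log2 scale (adjusted p = 0.00021) and rose from DP to LG by 0.92 (adjusted p = 0.00209), while LG against LL gave -0.29 (adjusted p = 0.161). SSR3 fell in DP by 1.34 (adjusted p = 0.000564), and SSR1 had -0.66 with an adjusted p of 0.0638. LL3 was low for SSR1, at 18.0 FPKM against 32.5 and 34.7 in the other LL libraries.

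Signal peptidase held the largest fall of the 51 genes in DP. SEC11C and SEC11A are alternative catalytic subunits of the complex. SEC11C (chromosome 24, 58346141 to 58358162) was at 90.0, 85.9 and 67.7 FPKM in LL, at 18.8, 17.0 and 19.9 in DP and at 61.1, 58.7 and 57.9 in LG. Its stages did not overlap on either scale, and it was the one gene of the 51 that lay below LL in every LG library on deposited FPKM. The log2 fold changes were -3.44 (SE 0.19, adjusted p = 1.94e-06) in DP against LL, 1.83 (SE 0.19, adjusted p = 0.000156) in LG against DP and -1.61 (SE 0.19, adjusted p = 0.000138) in LG against LL.

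SEC11A (chromosome 21, 21613944 to 21646736) was at 7.03, 7.80 and 8.83 FPKM in LL, at 20.4, 23.6 and 26.0 in DP and at 18.3, 17.9 and 21.2 in LG. After scaling its stages overlapped, with log2 fold changes of 0.14 (adjusted p = 0.398), 0.09 (adjusted p = 0.59) and -0.05 (adjusted p = 0.823). Within a library, the ratio of SEC11C to SEC11A does not depend on the scale. That ratio was 7.67 to 12.8 in LL, 2.74 to 3.33 in LG and 0.72 to 0.92 in DP, so that SEC11C exceeded SEC11A in LL and LG and not in DP. An exact permutation test over the 280 ways to part the 9 libraries into 3 stages gave p = 0.00357, the smallest it can give (adjusted p = 0.0286 over the 12 ratios computed).

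**Figure D3:**
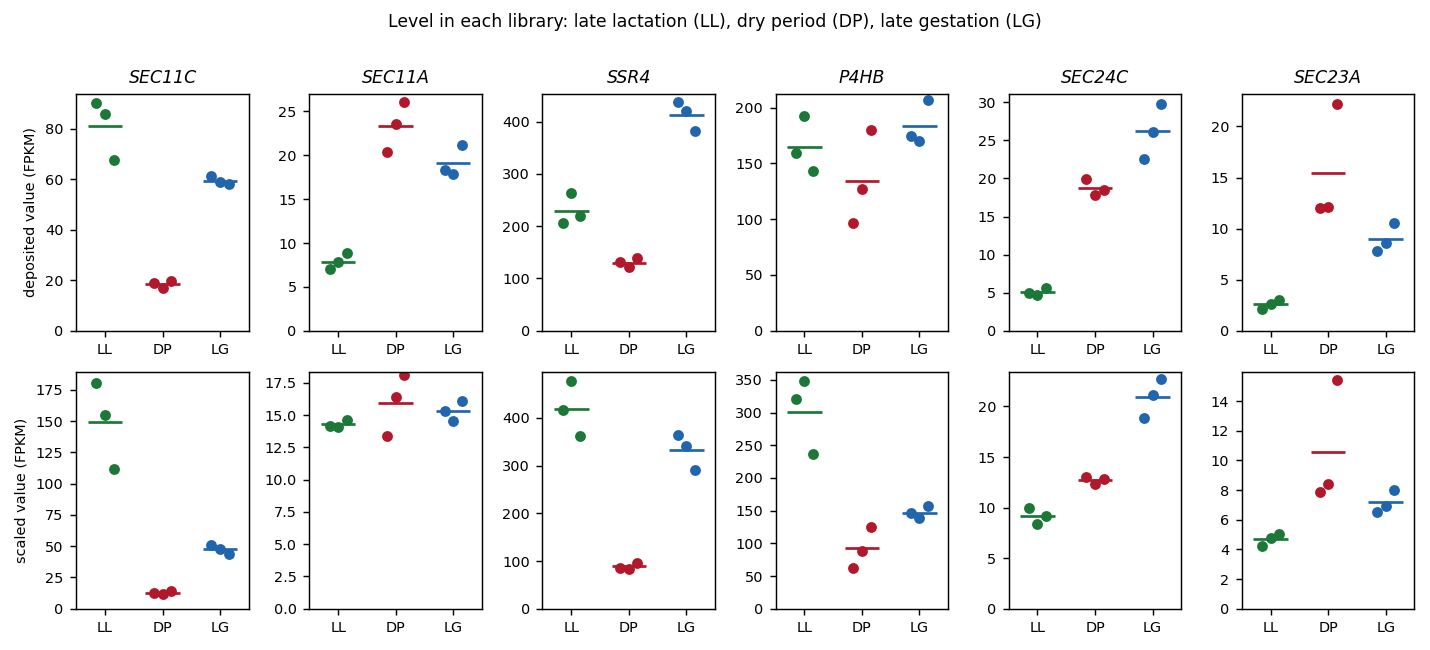
Deposited FPKM (top) and scaled FPKM (bottom) of 6 genes in each library, with a line at the mean of each stage (n = 3). SEC11C falls from 67.7 to 90.0 FPKM in LL to 17.0 to 19.9 in DP while SEC11A on scaled values stays between 13.3 and 18.1, and for P4HB, SEC24C and SEC23A the order or the size of the stage differences changes with the scale.

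Of the accessory subunits of signal peptidase, SPCS2 and SPCS3 were called lower in DP (log2 fold changes -1.18 and -1.05, adjusted p = 0.000486 and 0.000625) and fell in LG by 0.90 and 0.85 (adjusted p = 0.0027 and 0.00249), short of the threshold of 1. SPCS1, a linked gene, had -0.31 in DP (adjusted p = 0.162).

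Oligosaccharyltransferase transfers the N-glycan to asparagine. RPN2, a structural subunit, was at 39.2, 30.9 and 27.2 FPKM in LL, at 26.1, 25.2 and 31.6 in DP and at 28.3, 27.2 and 33.7 in LG. The deposited values overlapped in all comparisons, and the scaled values lay lower in DP and in LG than in LL, with log2 fold changes of -1.59 (SE 0.21, adjusted p = 0.000192) and -1.26 (SE 0.21, adjusted p = 0.000985). RPN1, another ribophorin subunit, was at 65.3, 74.4 and 71.4 FPKM in LL, at 82.1, 74.2 and 95.4 in DP and at 115, 105 and 123 in LG. It fell in DP by 1.15 (adjusted p = 0.000217) and rose from DP to LG by 0.68 (adjusted p = 0.00799).

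DDOST and DAD1, the other shared subunits, fell in DP by 1.28 and 1.25 on the log2 scale (adjusted p = 0.000362 and 0.000585). The catalytic subunits did not pass the test. STT3B, which can act after translation, had a log2 fold change of -0.28 in DP (SE 0.17, adjusted p = 0.175) and 0.00 in LG. STT3A, the linked catalytic subunit that acts during translation, ranged over 6.28 to 27.6 FPKM in LL, 13.5 to 47.5 in LG and 22.0 to 48.4 in DP, and its SE of 0.62 was the widest of the 51 genes.

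Among the folding enzymes, P4HB stood apart. P4HB encodes protein disulfide isomerase, which is also the beta subunit of collagen prolyl 4-hydroxylase. It was at 159, 192 and 143 FPKM in LL, at 96.3, 127 and 180 in DP and at 175, 170 and 207 in LG. DP3 reached the LL range on deposited FPKM, and on scaled values no DP or LG library did. The log2 fold changes were -1.73 in DP (SE 0.25, adjusted p = 0.000378), -1.01 in LG (adjusted p = 0.00823) and 0.72 in LG against DP (adjusted p = 0.05).

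The remaining folding genes were below the threshold of 1. Calnexin (CANX), the membrane-bound lectin chaperone, fell in DP by 0.98 (SE 0.18, adjusted p = 0.00139), whereas calreticulin (CALR), its soluble relative, had -0.52 (SE 0.24, adjusted p = 0.0856). The oxidoreductases PDIA4 and PDIA6 fell by 0.92 (adjusted p = 0.00844) and 0.76 (adjusted p = 0.0157), and PDIA3, which works with both lectin chaperones, had -0.24 (adjusted p = 0.316). PDIA5 was the least expressed of the family, at 1.81 to 2.03 FPKM in LL, 5.52 to 6.63 in LG and 6.03 to 8.04 in DP. Its scaled stages did not overlap between LL and DP or LG, but the log2 fold change was 0.33 in DP (adjusted p = 0.0667) and 0.40 in LG (adjusted p = 0.038).

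The COPII coat is built from the GTPase SAR1, the inner layer of SEC23 and SEC24, and the outer layer of SEC13 and SEC31. Its genes moved in both directions. SEC24C, 1 of 4 SEC24 paralogs that select cargo, was at 4.96, 4.66 and 5.57 FPKM in LL, at 19.9, 17.8 and 18.5 in DP and at 22.6, 26.1 and 29.8 in LG. The stages did not overlap between LL and either of the others on deposited or scaled values. The log2 fold changes were 1.10 (SE 0.12, adjusted p = 0.000115) in LG against LL, 0.43 (adjusted p = 0.0151) in DP against LL and 0.67 (adjusted p = 0.00296) in LG against DP.

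Other SEC24 paralogs did not rise. SEC24D had a log2 fold change of -0.39 in DP (SE 0.21, adjusted p = 0.136) and 0.00 in LG (adjusted p = 0.996), and the ratio of SEC24D to SEC24C was 1.17 to 1.59 in LL, 0.53 to 0.64 in LG and 0.56 to 1.03 in DP (exact permutation p = 0.0143, adjusted p = 0.0286). SEC24A fell in DP by 0.54 (adjusted p = 0.0214), and SEC24B had 0.14 (adjusted p = 0.55). The ratio of SEC24A to SEC24B was 1.46 to 3.11 in LL, 1.69 to 1.94 in LG and 1.08 to 1.25 in DP (exact permutation p = 0.0357, adjusted p = 0.0476).

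SEC23A, the inner-layer subunit needed for collagen export in connective tissue, was at 2.12, 2.64 and 3.06 FPKM in LL, at 12.1, 12.1 and 22.2 in DP and at 7.85, 8.55 and 10.5 in LG. DP3 was the highest library, and DP and LG lay above LL on both scales. It rose in DP by 0.97 on the log2 scale (SE 0.22, adjusted p = 0.00434), just under the threshold of 1. SEC23B, its paralog and a linked gene, was called lower in DP (-1.02, adjusted p = 0.00426).

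Of the other coat genes, SAR1A and SEC13 fell in DP by 0.84 (adjusted p = 0.00682) and 0.47 (adjusted p = 0.0305). SEC31A had 0.12 (adjusted p = 0.571). SAR1B ranged over 7.80 to 16.1 FPKM in LL, 7.02 to 20.3 in LG and 9.18 to 21.8 in DP, and no comparison of it passed the test. SAR1B and SEC24A are neighbours on chromosome 7, 26 bases apart in the table, at 64352787 to 64377647 and 64275443 to 64352760.

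Cargo receptors carry soluble proteins to the coat, and KDEL receptors return escaped chaperones. LMAN1, a mannose-binding receptor whose known cargo includes coagulation factors, was at 15.7, 16.9 and 15.9 FPKM in LL, at 14.7, 15.3 and 19.6 in DP and at 23.8, 21.1 and 32.7 in LG. Deposited values overlapped between LL and DP. On scaled values LMAN1 fell in DP by 1.32 (SE 0.18, adjusted p = 0.000251) and in LG by 0.51 (adjusted p = 0.0389), and rose from DP to LG by 0.81 (adjusted p = 0.00707). The gene lies 127 kb from SEC11C on chromosome 24. LMAN2 had -0.58 in DP (adjusted p = 0.0199), and the ratio of LMAN1 to LMAN2 was 1.35 to 2.06 in LL, 1.51 to 1.92 in LG and 0.84 to 1.20 in DP (exact permutation p = 0.0321, adjusted p = 0.0476).

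The KDEL receptors diverged within a library. KDELR1 was at 9.70, 11.6 and 11.5 FPKM in LL, at 15.1, 13.3 and 17.2 in DP and at 24.4, 24.6 and 26.1 in LG. It fell in DP by 0.88 (adjusted p = 0.000426) and rose from DP to LG by 0.90 (adjusted p = 0.000817). KDELR2 had -0.35 in DP (adjusted p = 0.149), and its ratio to KDELR1 was 1.15 to 1.31 in LL, 1.21 to 1.46 in LG and 1.65 to 2.14 in DP (exact permutation p = 0.00714, adjusted p = 0.0286). KDELR3 stood at 28.0 FPKM in DP3 against 10.2 and 12.9 in the other DP libraries, and its log2 fold change in DP was -0.26 (SE 0.30, adjusted p = 0.482). Its ratio to KDELR1 was 0.62 to 0.69 in LL, 0.50 to 0.62 in LG and 0.68 to 1.63 in DP, with DP3 highest (exact permutation p = 0.0143, adjusted p = 0.0286). KDELR3 shares 172 bases with DDX17 on the other strand, which was at 33.8 to 184 FPKM.

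Of the 12 ratios, those of CALR to CANX (exact permutation p = 0.0643), SAR1B to SAR1A (p = 0.175) and STT3A to STT3B (p = 0.454, with a linked gene) did not reach 0.05. PDIA5 to PDIA3 was 0.026 to 0.033 in LL, 0.036 to 0.041 in LG and 0.039 to 0.051 in DP (exact permutation p = 0.0107, adjusted p = 0.0286). The ratios SEC61A2 to SEC61A1 and SEC23B to SEC23A contain linked genes and are left out here.

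**Figure D4:**
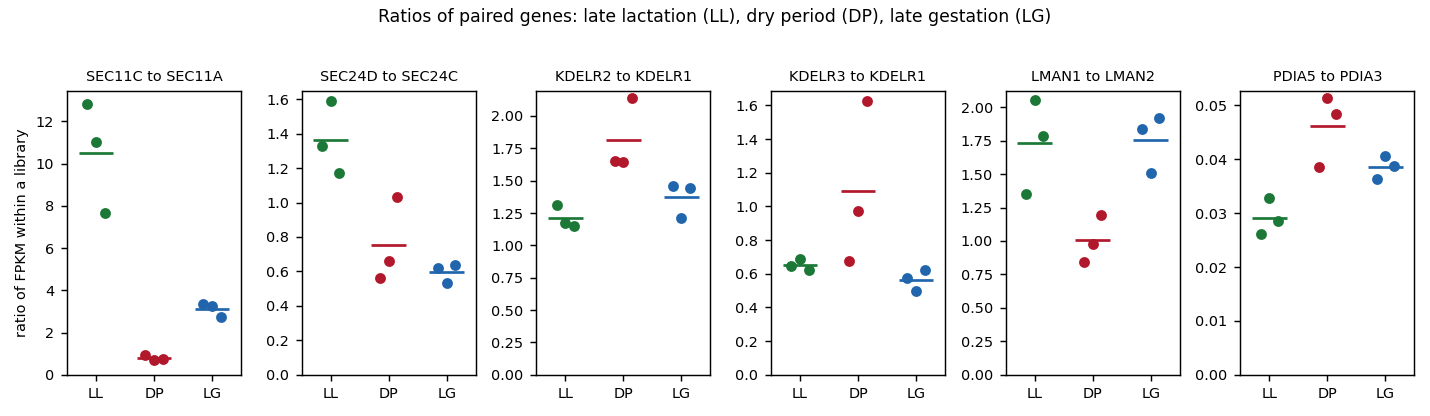
Ratio of deposited FPKM of 6 pairs of genes within each library, with a line at the mean of each stage (n = 3). The ratio of SEC11C to SEC11A separates the 3 stages (7.67 to 12.8 in LL, 2.74 to 3.33 in LG, 0.72 to 0.92 in DP), and KDELR2 to KDELR1 is highest in the DP libraries (1.65 to 2.14).

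Single libraries stood out within stages. DP3 was the highest of the DP libraries for 43 of 51 genes and LG3 the highest of the LG libraries for 37. In DP3 the genes farthest above the mean of the other DP libraries on deposited FPKM were KDELR3 (2.42 times), SEC23A (1.83 times) and SEC24D (1.67 times). Among the DP libraries, the summed fibroblast and endothelial markers were also highest in DP3, and the summed leukocyte and plasma cell markers were lowest there. The luminal, basal and adipocyte sums were highest in DP1 or DP2. The part of these cell types was not tested. Without DP3, 22 genes were called lower in DP against LL, with CANX, PDIA4 and SAR1A added, and the log2 fold change of SEC11C stayed called. Of the 14449 genes tested without DP3, 1307 were called lower. Without DP1, SEC23B, SPCS3 and SRPRA fell short of the fold used for a call in DP against LL, at log2 fold changes of -0.96, -0.97 and -0.94 with adjusted p of 0.0154, 0.00298 and 0.00208 in limma. SEC23B was also no longer called without LL1, at -0.88. SEC23A was called higher in DP without DP1 (1.12), DP2 (1.08) or LL3 (1.00). Without LL3, CANX, PDIA4 and SSR1 were added to the genes called lower in DP, and without LL2 PDIA4 was. Leaving out LL2 or LG2 took the LG against LL calls of P4HB, SEC62 and SRP54 away, and leaving out LL1 that of P4HB. Without LL3 SEC61A1, SEC61G and SSR3 were added to the LG against LL calls, without LL2 SSR3 (-1.01), without DP1 SAR1B (-1.11), and without LG3 SEC61A1, SPCS2 and SAR1B. From DP to LG, SEC23B was called higher without DP2, DP3, LG1 or LG2 (1.01 to 1.16), SEC61A2 without DP2 and KDELR1 without DP3. Of the genes named in this paragraph, SEC61A1, SEC61A2 and SEC23B are linked genes.

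Markers of several cell types moved with the stages, and their part in these results was not tested. Sums of a marker list are given as deposited FPKM and then after scaling. Of 6 fibroblast markers 5 were called higher in DP against LL, and their sum was 105 to 196 FPKM in LL, 624 to 1177 in LG and 768 to 3443 in DP. After scaling it was 212 to 324 in LL, 521 to 954 in LG and 502 to 2392 in DP. Of 7 leukocyte markers 4 were called higher in DP, and the sum was 19.4 to 23.9 FPKM in LL, 37.9 to 47.7 in LG and 110 to 182 in DP. Scaled leukocyte sums were 35.0 to 40.0 in LL, 28.8 to 38.7 in LG and 76.1 to 119 in DP, where DP alone lay apart. Of 4 endothelial and 6 basal and myoepithelial markers 0 and 1 were called higher in DP in limma, with 1 and 2 at an adjusted or unadjusted p under 0.05. The endothelial sum was 46.9 to 71.6 FPKM in LL, 56.3 to 89.6 in LG and 151 to 219 in DP, and after scaling it was 87.3 to 118 in LL, 47.0 to 68.2 in LG and 101 to 152 in DP. The basal sum was 81.8 to 127 FPKM in LL, 256 to 384 in LG and 204 to 639 in DP, and after scaling, where DP overlapped both other stages, it was 164 to 224 in LL, 214 to 292 in LG and 134 to 443 in DP.

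Of 7 luminal epithelial markers 1 was called lower in DP (ELF5, a transcription factor of the secretory lineage, with a log2 fold change of -4.19 and an adjusted p of 3.13e-06) and 3 were lower by adjusted p alone, with a median of -0.40 over the list. On deposited FPKM the sum of the 7 was 535 to 637 in LL, 1000 to 1314 in LG and 528 to 937 in DP. LL and DP overlapped there. The scaled sum was 883 to 1151 in LL, 835 to 1000 in LG and 346 to 650 in DP. On that scale DP lay below both other stages. A removal of ELF5 was chosen after its values were seen. Without ELF5 the scaled sum was 406 to 475 in LL, 384 to 502 in LG and 320 to 606 in DP. Those scaled stages overlapped. The deposited sum without ELF5 was 202 to 268 in LL, 460 to 660 in LG and 489 to 873 in DP. LL lay below both other stages there. For plasma cells, which are rich in ER, 5 of 8 markers could be tested and 1 was called lower in DP. That list summed to 118 to 429 FPKM in LL, 14.8 to 28.7 in LG and 61.9 to 205 in DP, and after scaling to 194 to 862 in LL, to at most 24.0 in LG and to 43.0 to 142 in DP. Of 4 adipocyte markers 2 could be tested, none was called in DP against LL in limma (0 by adjusted p alone, 1 at an unadjusted p under 0.05), and their sum was 1.35 to 2.25 FPKM in LL, 1.50 to 2.02 in LG and 3.71 to 31.1 in DP (scaled 2.71 to 3.72 in LL, 1.14 to 1.69 in LG and 2.57 to 20.4 in DP), with LEP listed at 0 in every LL library.

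Other lists of the secretory route were read in DP against LL beside the 8.79% of all genes called lower and the 13.8% called higher. Of 16 genes of accessory translocation and membrane insertion 4 were called lower and 0 higher (10 and 1 by adjusted p alone, 10 and 4 at an unadjusted p under 0.05 in limma). TRAM1, a membrane protein next to the channel, fell most, from 51.2, 45.4 and 61.4 FPKM in LL to 34.2, 39.0 and 31.7 in DP (log2 fold change -1.96, adjusted p = 3.89e-05). From DP to LG, EMC6, a linked gene of the ER membrane complex, rose by 2.48 (adjusted p = 7.38e-05). TRAM2, which lay at 0.26 to 0.61 FPKM in LL and LG libraries, fell by 1.08 from DP to LG. Those values lay around the filter of 0.5 FPKM and DP was the higher stage, so no p-value is given.

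Of 6 accessory oligosaccharyltransferase subunits 3 were called lower in DP, led by MAGT1, the oxidoreductase subunit of the STT3B complex (-1.62, adjusted p = 4.97e-05). Of 18 other luminal chaperones and oxidoreductases 6 were called lower and 1 higher. SDF2L1, a partner of ER DnaJ proteins, was at 14.0, 13.5 and 11.3 FPKM in LL and at 5.18, 5.36 and 6.84 in DP (-2.31, adjusted p = 7.26e-06), below LL in every DP library before scaling as well. ERO1B, an oxidase that recharges disulfide isomerases, rose by 1.64 from 0.14 to 0.44 FPKM in LL to 4.46 to 6.40 in DP. Its LL values lay under the filter of 0.5 FPKM, so it entered the test only through the other stages. No p-value is given for it, and the size of the rise depends on the 1 FPKM added. ERP29, a chaperone-like relative of the disulfide isomerases, rose from DP to LG by 1.31 (adjusted p = 0.000529).

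At the ER exit site, 5 of 16 genes were called lower and 2 higher in DP. SEC16B, a scaffold of exit sites, was at 1.94, 2.49 and 1.48 FPKM in LL, at 0.61, 0.48 and 0.36 in DP and at 7.18, 7.58 and 13.8 in LG. It fell by 1.77 in DP (adjusted p = 0.000153) and rose by 2.65 from DP to LG (adjusted p = 6.63e-05), and its stages did not overlap. LMAN2L, a lectin related to LMAN2, rose in DP by 1.48 from 0.15 to 0.16 FPKM in LL. Those LL values lay under the filter of 0.5 FPKM. LMAN2L therefore entered the test only through the other stages, and no p-value is given. Of 11 genes of the COPI coat, which carries the return traffic, 2 were called lower in DP and 0 higher (7 and 1 in limma at an adjusted or unadjusted p under 0.05), led by GBF1, the exchange factor that starts its assembly (-1.49, adjusted p = 5.78e-05). COPZ2, a zeta subunit, fell from DP to LG by 1.11 (adjusted p = 0.0208), and DP3 was high for it too (24.2 FPKM against 8.83 and 10.1).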

How the data were processed

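Total RNA of mammary tissue was made into libraries with a TruSeq v2 kit and sequenced by the authors, who per the paper's methods trimmed and aligned the reads and quantified transcripts as FPKM. Those methods name StringTie and the submitters' processing notes name HTSeq, and which tool made the deposited gene values is not stated. The deposited table holds 1 value per gene and library, was read as FPKM and names neither unit nor genome build. Starts and ends of 51 of 51 genes equal those of RefSeq ARS1.2. FPKM keep no read counts, so depth behind a value is unknown and no counting error was given. Members and gene lists were chosen with earlier results of these data known. Values were divided by median-ratio factors from 15905 genes, 1 was added and log2 was taken. A gene entered the test if 3 or more libraries reached 0.5 FPKM, and limma 3.58.1 (R 4.3.3) was fitted to all 9 libraries with a mean-variance trend and no covariate. Ratios within a library, with no pseudocount, were tested by exact permutation in Python 3.11.15, two-sided in effect since the statistic is the sum of squares between stages. Every member is named, and of each other pathway list the genes called with the largest change in either direction in DP against LL or LG against DP. Markers are given by list, and ELF5 was named after its values were seen. The levels background, the sums without ELF5 and the comparison of 2 sets of roles were added after the values were seen. Linked genes were searched for among the 8 neighbours on either side, with a tolerance of 1% of the range. Same-numbered libraries deviated together with correlations of -0.11 to 0.20, so the numbers were not taken to pair goats. The steps were tested on simulated data. Promoter and protein sequences were not analysed here.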

Additional observations from a re-analysis of the deposited data

How the results depend on the processing

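There were 3 goats per stage, the depth is unknown, and counts of calls moved most with the scale between libraries. Without scaling, the median of all genes moved to 1.09 on the log2 scale for DP against LL, to -0.18 for LG against DP and to 0.93 for LG against LL. The members' medians then became 0.58, 0.23 and 0.83 (from -0.76, 0.46 and -0.29). In DP against LL 11 members were called higher and 1 lower, where 7979 and 369 of the 14701 genes tested were. In LG against LL 15 members were called higher and 0 lower, where 6698 and 345 of the genes tested were. Relative to the shift of all genes, an alternative added after the values were seen, 1 higher and 10 lower were called in DP against LL with a median of -0.51. Of all genes tested, 1412 were then called higher and 1129 lower. In LG against LL 2 members were called lower, where 1021 of all genes tested were. Quantile normalization gave 6 members called lower in DP against LL (median -0.40), where 1072 of the 14701 genes tested were. In LG against LL it gave 1 called lower, where 845 of the genes tested were, and in LG against DP a median of 0.24. Quantile normalization also turned PDIA3 in DP against LL from -0.24 to 0.56 (adjusted p = 0.0294). By adjusted p alone, 18 members were higher for LG against DP (18.4% of all genes tested were). For LG against LL 2 were higher and 18 lower (25.6% and 24.6% of all genes tested). For DP against LL 2 were higher and 33 lower (28.2% and 28.6% of all genes tested). A pseudocount of 0.1 added SEC23A as the 1 gene called higher in DP against LL, and gave 4 called higher in LG against DP. Of all genes tested, 2825 and 1252 were then called higher in these comparisons. The causes of these differences were not tested.

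Leaving out each library in turn gave 0 to 1 higher, 16 to 22 lower and a median of -0.91 to -0.66 in DP against LL. Of the 14401 to 14647 genes then tested, 1861 to 2038 were called higher and 1214 to 1393 lower. For LG against LL it gave 1 higher in each case, 2 to 8 lower and a median of -0.44 to -0.24. Of all genes tested, 1464 to 1622 were called higher and 907 to 996 lower there. In LG against DP it gave 2 to 4 higher, 0 lower and a median of 0.34 to 0.59. There 848 to 977 of all genes tested were called higher and 890 to 1040 lower. Other filters, the 2 stages alone in the fit, no mean-variance trend and removal of linked genes kept every count within 1.5 times. Same-numbered libraries are not taken as pairs, and with a replicate block 19 genes were called lower and 0 higher in DP against LL, as without it. Of all genes tested, 1297 were called lower and 2043 higher with that block. The ratios of SEC11C to SEC11A and KDELR2 to KDELR1 stayed under 0.05 in the exact permutation test with each library left out. Those of SEC24D to SEC24C, SEC24A to SEC24B, LMAN1 to LMAN2 and KDELR3 to KDELR1 reached 0.05 or more without at least 1 library (at most 0.05, 0.171, 0.075 and 0.0786), and PDIA5 to PDIA3 gave 0.164 with a pseudocount of 1, an alternative added later.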
